A study of Mus musculus with 4 samples.

Results

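Transcripts of 10 genes of the RGS family, Rgs1, Rgs2, Rgs4, Rgs5, Rgs6, Rgs7, Rgs10, Rgs16, Rgs18 and Rgs19, were followed in mouse abdominal aortic grafts. The genes were taken by gene symbol from the deposited table of read counts, as 10 of its 54752 genes, and all 10 passed the filter on low counts. RNA from whole graft tissue was sequenced 4 weeks after transplantation, after removal of ribosomal RNA. One group was called ALLO, allografts in chronic rejection per the series title, and were set against grafts labelled ISO, with no fuller name given. Each group had 2 libraries (n = 2 per group throughout). The labels give neither the strain, sex or age of donors and hosts nor any allele, agent or drug, and do not say that replicates were separate animals. P-values therefore reflect the spread among these 4 samples alone, part of which may be technical. In whole graft tissue, cells of the graft and of the host are measured together.

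RGS proteins shut off signalling by G protein-coupled receptors. Their RGS domain speeds the hydrolysis of GTP on active G alpha subunits, mainly of the Gi and Gq classes, so that a receptor's signal ends sooner. In arteries they are known for limiting constriction by angiotensin, endothelin and noradrenaline, and in leukocytes for limiting migration towards chemokines. The R4 subfamily (here Rgs1, Rgs2, Rgs4, Rgs5, Rgs16 and Rgs18) consists of small proteins with little beside the RGS domain, Rgs6 and Rgs7 belong to the R7 subfamily, which works as a complex with the G beta 5 subunit, and Rgs10 and Rgs19 stand in the R12 and RZ subfamilies.

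The libraries held 17532344 to 20194854 counts and 19987 to 22171 detected genes. ISO replicate 1 stood apart from ISO replicate 2. For Xist, the RNA that silences an X chromosome, it had 10647 counts and the others at most 8. For Ddx3y, on the Y chromosome, it had 0 and the others at least 2105. It also held more leukocyte transcripts, with 168 against 62.5 CPM (the read count normalised for library size and composition) summed over 5 macrophage markers, 7.60 against 2.17 CPM over 7 T cell markers and 38.6 against 0.422 CPM over 5 B cell markers. By Xist and Ddx3y, the ISO libraries were not repeat libraries of the same graft. Both ALLO libraries matched ISO replicate 2 in these sex-linked genes, so the groups were not balanced for them. Values without ISO replicate 1 stand beside some of the results it changes, but not beside all of them. The 6 smooth muscle markers that define aortic media were present in every library, at 1157 and 2402 CPM in ALLO and 28261 and 28339 CPM in ISO.

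The RGS genes fell into 3 sets. Transcripts of Rgs1, Rgs16, Rgs10, Rgs2 and Rgs19 were higher in ALLO grafts, by 97.9-fold for Rgs1 down to 3.67-fold for Rgs19. Transcripts of Rgs7, Rgs6 and Rgs4 were lower, by 14.3-, 10.3- and 10.1-fold. Rgs5, the most abundant of the 10, and Rgs18 did not pass the test. Of the 10 genes, 8 thus passed edgeR's quasi-likelihood test at a Benjamini-Hochberg adjusted p under 0.05, 5 higher and 3 lower, where 33.1% of the 16498 genes tested passed in either direction, 18.4% as higher and 14.8% as lower. For all 10 genes both ALLO libraries lay on the same side of both ISO libraries, 6 with ALLO above and 4 with ALLO below. The same held for 72.5% of all genes tested, 37.1% with ALLO above and 35.4% with ALLO below. In bulk tissue, fewer cells of a type and less RNA per cell cannot be told apart.

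**Figure D1:**
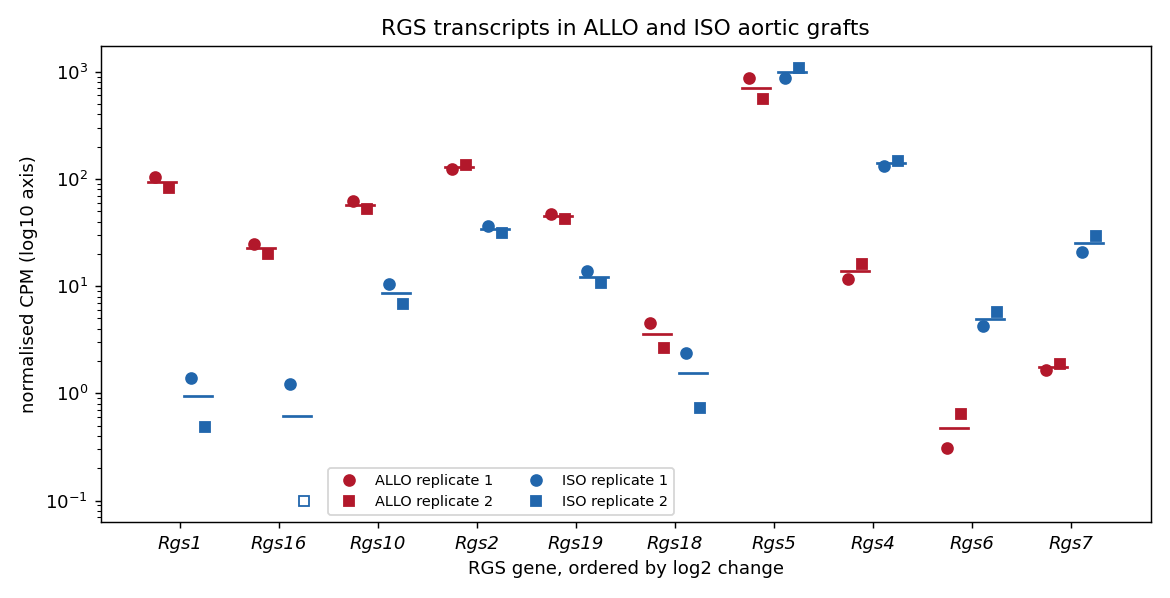
Normalised CPM (log10 axis) of the 10 RGS genes in each library, ordered by log2 change, with ALLO libraries in red left of ISO libraries in blue, circles for replicate 1, squares for replicate 2 and a line at each group mean. The open square marks Rgs16 in ISO replicate 2, which had 0 counts and is drawn at the foot of the axis. Rgs5 lies highest in both groups, and Rgs1 and Rgs16 are separated most.

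Rgs1 and Rgs16, R4 members known from activated B and T lymphocytes, made up the set with the largest rise. Rgs1 (ENSMUSG00000026358.13, mm10 chromosome 1, 144242296 to 144249242) had 104 and 82.8 CPM in the ALLO libraries, against 1.40 and 0.483 CPM in the ISO libraries, from 2024, 1823, 24 and 8 counts. Both ALLO values exceeded both ISO values many times over. The log2 change was 6.61 ± 0.50 (SE), or 97.9-fold, with an edgeR adjusted p of 0.00319. It became 189-fold without ISO replicate 1 and 65.2-fold without ISO replicate 2, and passed in both cases.

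Rgs16 (ENSMUSG00000026475.7, chromosome 1, 153740349 to 153745468), which acts on Gi and Gq and in lymphocytes restrains chemokine-driven migration, had 24.9 and 20.0 CPM in ALLO, against 1.23 and 0 CPM in ISO. The ISO values came from 21 counts in replicate 1 and 0 in replicate 2, so the ISO level rests on a single library. The fitted change was 5.17 ± 1.13 on the log2 scale, 35.9-fold (edgeR adjusted p = 0.0247). With DESeq2 the adjusted p was 0.0645, and leaving out ALLO replicate 1 or 2 gave edgeR adjusted p values of 0.0775 and 0.0549, so the call was lost in each case. Without ISO replicate 2 the rise was 17.9-fold, and without ISO replicate 1 it was at least 62.0-fold, on a floor of 6 counts in the remaining ISO library. An antisense gene covers 10.1% of the exonic bases of Rgs16, and it had 0 counts in all 4 libraries.

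Rgs10, Rgs2 and Rgs19 rose by smaller amounts from levels that were already measurable in ISO. Rgs10 (ENSMUSG00000030844.11, chromosome 7, 128373621 to 128418758), a short Gi-directed protein known from macrophages and microglia, where it restrains inflammatory activation, had 62.3 and 52.6 CPM in ALLO and 10.5 and 6.82 CPM in ISO. Its change was 2.73 ± 0.29 (log2, SE), 6.62-fold, with an edgeR adjusted p of 0.00479. The fold stayed between 5.37 and 8.34 when any 1 library was left out.

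Rgs2 (ENSMUSG00000026360.9, chromosome 1, 143999338 to 144004161) is the R4 member with a preference for Gq, and mice without it are known to be hypertensive. It had 124 and 134 CPM in ALLO, against 36.4 and 31.2 CPM in ISO, 3.82-fold higher (log2 1.93 ± 0.19, edgeR adjusted p = 0.00426). Its group ranges lay far apart relative to the spread within each group, with SDs of 7.48 CPM in ALLO and 3.65 CPM in ISO.

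Rgs19 (ENSMUSG00000002458.13, chromosome 2, 181688419 to 181693977), the protein also called GAIP, binds the Gi3 alpha subunit and sits on membranes through a palmitoylated cysteine string. It had 47.6 and 42.6 CPM in ALLO and 13.8 and 10.7 CPM in ISO, 3.67-fold higher (log2 1.88 ± 0.23, edgeR adjusted p = 0.00622). Without single libraries the fold of Rgs19 was 3.22 to 4.16, and that of Rgs2 was 3.49 to 4.10, each past the threshold every time.

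Leukocyte markers moved with these 5 genes. All 5 macrophage markers and all 7 T cell markers rose, with summed levels of 1616 to 1890 CPM in ALLO and 62.5 to 168 CPM in ISO for macrophages, and 301 to 372 CPM in ALLO and 2.17 to 7.60 CPM in ISO for T cells. Of 5 B cell markers 0 passed with edgeR, 1 had an unadjusted p under 0.05, and 0 passed with DESeq2 and 1 with limma-voom. With replicate number as a second term in edgeR, which is not shown to pair the samples, all 5 markers passed as higher. Their sum was 106 to 242 CPM in ALLO and 0.422 to 38.6 CPM in ISO, and 5 rose without ISO replicate 1 and 2 without ISO replicate 2. Of 5 neutrophil markers 4 were tested and 1, Csf3r, passed as higher, with 151 to 282 CPM in ALLO and 12.7 to 128 CPM in ISO, and without ISO replicate 1 the list had 4 higher of 5 tested. Within ISO, leukocyte markers were higher in replicate 1. There Rgs16, Rgs1, Rgs10, Rgs19 and Rgs2 differed by 2.56, 1.17, 0.61, 0.35 and 0.22 on the log2 scale (replicate 1 over replicate 2, 0.25 CPM added to each). The value of Rgs16 rests on 21 and 0 counts. Rgs18, which did not pass, differed by 1.44, and Rgs4, Rgs5, Rgs6 and Rgs7 by -0.13, -0.32, -0.42 and -0.49. Lists of other cells were higher in ISO replicate 1 too. Their median log2 ratios were 0.72 for 5 fibroblast, 0.78 for Schwann cell, 0.31 for mural and 0.19 for endothelial markers. The smooth muscle median was 0.079, against 1.62 for macrophage and 1.93 for T cell markers. The ISO libraries also differed in Xist and Ddx3y. The part of leukocytes in the rise of the RGS genes was not tested.

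Rgs18 (ENSMUSG00000026357.3, chromosome 1, 144752683 to 144775435), the R4 member known from megakaryocytes and platelets, had 4.57 and 2.63 CPM in ALLO and 2.40 and 0.724 CPM in ISO, from 89, 58, 41 and 12 counts. The ALLO values were the higher ones, but ALLO replicate 2 and ISO replicate 1 nearly met. The change of 1.20 ± 0.72 (log2) did not pass (edgeR adjusted p = 0.258), and its 95% interval ran from -0.63 to 3.02. Leaving out a library gave 0.56 (without ISO replicate 2) to 2.29 (without ISO replicate 1), and Rgs18 did not pass in any of the 4 cases. Of 8 platelet and megakaryocyte markers 7 were tested and 0 passed with edgeR, DESeq2 or limma-voom, nor at an unadjusted p under 0.05. Their summed level was 66.5 and 59.8 CPM in ALLO and 54.7 and 31.0 CPM in ISO, and Gp1bb was at 0 counts in every library.

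**Figure D2:**
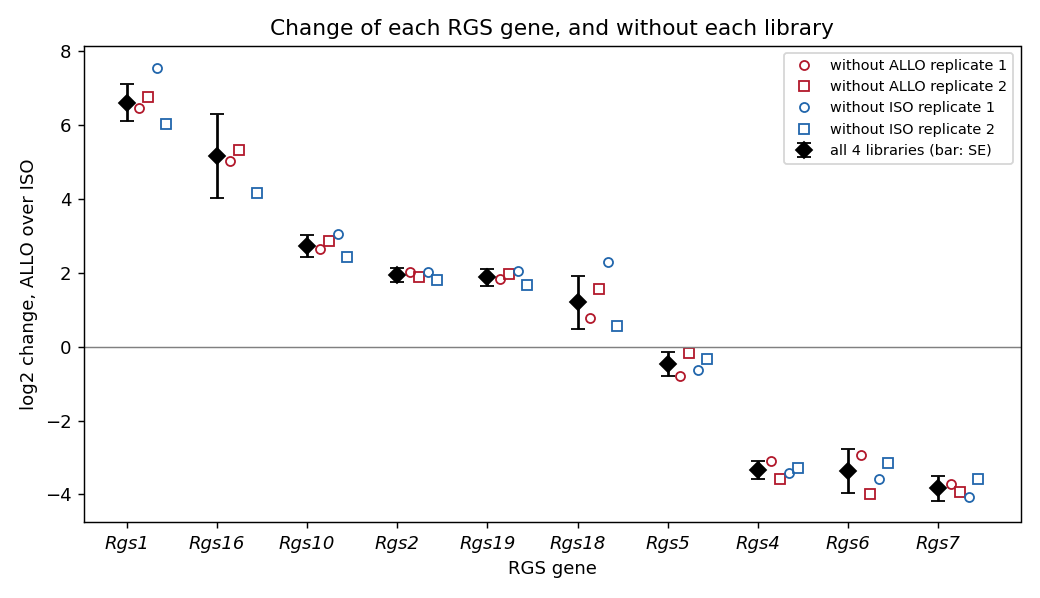
Log2 change of each RGS gene, ALLO over ISO, with all 4 libraries (black diamonds, bars show the SE) and without each library in turn (open red for an ALLO library left out, open blue for an ISO library). Rgs16 without ISO replicate 1 is not drawn, since its ISO level is then 0 counts. Signs do not change in the cases drawn, and Rgs1, Rgs16, Rgs18 and Rgs6 spread most.

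Rgs4 and Rgs5, the R4 members known from vascular smooth muscle and pericytes, stood apart from each other: Rgs4 fell, Rgs5 did not pass, and the 95% intervals of their log2 changes did not overlap. They are neighbours on chromosome 1, with 45663 bases and no annotated gene between them, and are transcribed towards each other. Rgs4 (ENSMUSG00000038530.11, 169741477 to 169747642, minus strand) had 11.7 and 16 CPM in ALLO, against 133 and 146 CPM in ISO. All 4 values were tight within their groups, and the groups lay far apart. The change was -3.33 ± 0.24 (log2, SE), 10.1-fold lower with an edgeR adjusted p of 0.00284 and a 95% interval of -3.94 to -2.72.

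Rgs5 (ENSMUSG00000026678.10, 169655501 to 169695813, plus strand), widely used as a pericyte marker, had 865 and 552 CPM in ALLO and 875 and 1092 CPM in ISO. ALLO replicate 1 lay just under ISO replicate 1, and ALLO replicate 2 was the lowest. The change was -0.47 ± 0.33 (log2), which did not pass (edgeR adjusted p = 0.322), with a 95% interval of -1.31 to 0.36, or from 0.404 to 1.28 times the ISO level. It ranged from -0.80 without ALLO replicate 1 to -0.18 without ALLO replicate 2.

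The promoter windows of this pair are shown because the 2 neighbours had log2 changes of such different size, together with that of Rgs2, the R4 member that rose from a substantial level in ISO. Sequences are the 250 bases before the annotated start on the gene's strand, 5′ to 3′, from RefSeq on GRCm38.p6, for Rgs4 at chr1:169747643-169747892 (minus), for Rgs5 at chr1:169655251-169655500 (plus) and for Rgs2 at chr1:144004150-144004399 (minus). Capitals mark the cAMP response half-site TGACG, as its reverse complement where it lies on the other strand, and the TATA box letters TATAAA.
Rgs4: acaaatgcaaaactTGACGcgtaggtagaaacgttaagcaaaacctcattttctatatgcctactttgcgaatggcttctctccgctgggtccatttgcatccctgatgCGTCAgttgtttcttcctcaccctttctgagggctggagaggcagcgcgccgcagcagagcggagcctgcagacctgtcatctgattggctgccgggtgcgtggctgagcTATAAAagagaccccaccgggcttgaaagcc
Rgs5: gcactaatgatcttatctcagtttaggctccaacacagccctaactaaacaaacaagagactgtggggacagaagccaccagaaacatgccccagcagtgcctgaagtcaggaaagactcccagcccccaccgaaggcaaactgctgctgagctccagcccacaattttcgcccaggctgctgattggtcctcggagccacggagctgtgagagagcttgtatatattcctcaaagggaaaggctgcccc
Rgs2: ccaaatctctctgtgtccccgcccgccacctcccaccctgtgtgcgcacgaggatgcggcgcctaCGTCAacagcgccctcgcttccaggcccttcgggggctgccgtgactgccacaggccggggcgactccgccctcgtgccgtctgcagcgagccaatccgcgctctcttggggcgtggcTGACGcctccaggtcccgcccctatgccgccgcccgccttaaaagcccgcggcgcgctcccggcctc

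RefSeq promoter windows were found for 8 of the 10 genes and searched on both strands for 5 motifs. The half-site TGACG occurred in the Rgs4 and Rgs2 windows, 2 times in each, and in 17.8% of the 32851 windows in the table. The letters TATAAA began at position -31 from the start of Rgs4 and occurred in 12.4% of all windows. The interferon-gamma activated site TTCNNNGAA (7.02% of all windows), the AP-1 site TGANTCA (6.75%) and the serum response factor motif known as the CArG box (1.47%) were not found in the windows of the 8 genes. No matches overlapped.

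Most markers of the cells known to express Rgs4 and Rgs5 were lower in ALLO. All 6 smooth muscle markers fell, with a median log2 change of -4.18, and 4 of 6 mural cell and pericyte markers fell, with a median of -2.43, while Pdgfrb and Notch3 did not pass at -0.45 and 0.32. The summed level of the 6 mural markers was 582 and 1004 CPM in ALLO and 3696 and 3038 CPM in ISO. Per CPM of the summed smooth muscle markers, Rgs5 stood at 0.748 and 0.230 CPM in ALLO, against 0.0310 and 0.0385 CPM in ISO. Per CPM of the mural markers it stood at 1.49 and 0.550 in ALLO and 0.237 and 0.360 in ISO. ALLO replicate 1 had the higher Rgs5 and the lower smooth muscle and mural sums of the ALLO pair. These ratios are a description, with no test, and the part of mural cells in the levels of Rgs4 and Rgs5 was not tested.

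**Figure D3:**
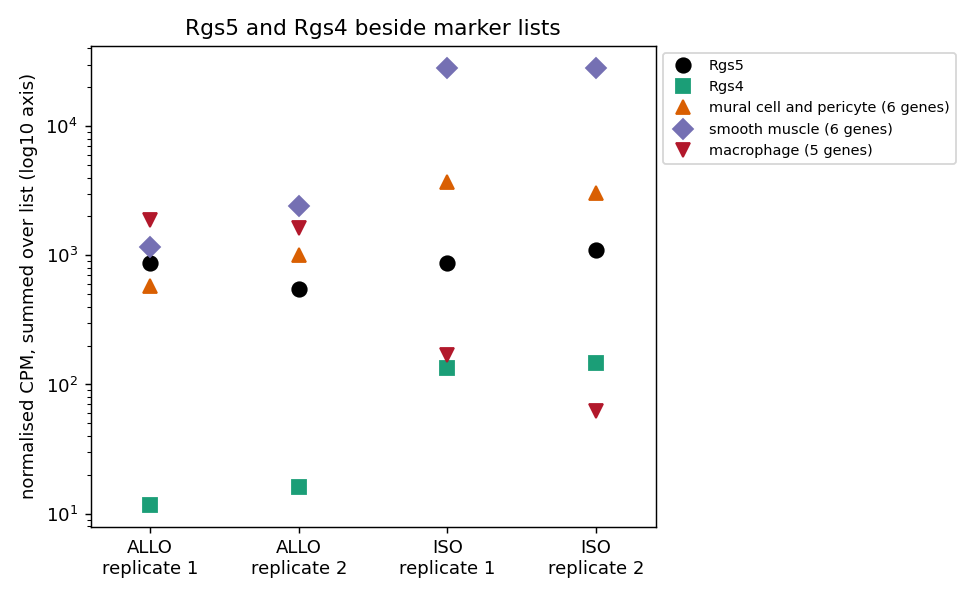
Normalised CPM (log10 axis) of Rgs5 and Rgs4 and summed normalised CPM of 3 marker lists in each library. Rgs5 stays between 552 and 1092 CPM in all 4 libraries, Rgs4 and the smooth muscle sum are lower in ALLO, and the macrophage sum is higher in ALLO.

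Rgs7 and Rgs6, the R7 members, were the scarcest of the genes that fell. R7 proteins are best known from neurons, and Rgs6 also from the heart, where it limits muscarinic slowing of the beat. Rgs7 (ENSMUSG00000026527.13, chromosome 1, 175059087 to 175492500) had 1.64 and 1.86 CPM in ALLO and 20.9 and 29.3 CPM in ISO, from 32, 41, 357 and 486 counts. It was 14.3-fold lower, a log2 change of -3.83 ± 0.33 (edgeR adjusted p = 0.00358).

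Rgs6 (ENSMUSG00000021219.16, chromosome 12, 82588292 to 83162056) had 0.308 and 0.636 CPM in ALLO, from 6 and 14 counts, against 4.21 and 5.73 CPM in ISO. It was 10.3-fold lower (log2 -3.37 ± 0.59, edgeR adjusted p = 0.0139). The fall of Rgs6 was 15.7-fold without ALLO replicate 2, and it passed in each case with 1 library left out.

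Markers of nerve cells rose, did not pass or were too low to test. Of 5 neuron markers 3 were tested, of which Tubb3 and Snap25 rose and 0 fell. DESeq2 gave 2 higher and limma-voom 1. None fell with either, nor at an unadjusted p under 0.05. The median log2 change of the tested markers was 3.27, and 1.66 without ALLO replicate 2. The summed level of the 5 markers was 14 and 65.7 CPM in ALLO and 16.3 and 5.37 CPM in ISO. Snap25 and Syt1 had 0 counts in both ISO libraries. Of 5 Schwann cell markers 3 rose, with a summed level of 115 and 177 CPM in ALLO and 27.1 and 17.0 CPM in ISO. All 6 smooth muscle markers fell, with a median log2 change of -4.18. The part of any cell type in the falls of Rgs7 and Rgs6 was not tested. Among the partners of R7 proteins, Rgs7bp, which anchors them at the membrane, fell 5.69-fold, with 11.7 and 12.1 CPM in ALLO and 69.9 and 65.5 CPM in ISO (log2 -2.51 ± 0.18, edgeR adjusted p = 0.00285). Gnb5, which encodes the G beta 5 subunit that R7 proteins need for stability, had 5.86 and 13.3 CPM in ALLO and 10.7 and 11 CPM in ISO and did not pass (-0.18, edgeR adjusted p = 0.786). The other 3 partners on the list, Rgs9bp, Gpr158 and Gpr179, were too low to test, with at most 22 counts in any library.

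To compare genes with each other, CPM was divided by exon length as deposited, giving CPM per kilobase. That length is not the length of a single transcript. For Rgs1 it was 6947 bases, the whole span of the gene, so its level per kilobase may be understated. The order here and the shares below depend on these lengths. In ALLO the order was Rgs5 at 156 ± 48.6 (mean ± SD), Rgs2 at 35.6 ± 2.06, Rgs10 at 33.6 ± 4.02, Rgs19 at 20.2 ± 1.57, Rgs1 at 13.4 ± 2.16, Rgs16 at 9.60 ± 1.5, Rgs4 at 4.48 ± 0.983, Rgs18 at 1.77 ± 0.676, Rgs7 at 0.291 ± 0.0255 and Rgs6 at 0.0471 ± 0.0231 CPM per kilobase. Only Rgs2 and Rgs10 overlapped as neighbours in that order. In ISO the order was Rgs5 at 216 ± 33.8, Rgs4 at 45.1 ± 2.95, Rgs2 at 9.32 ± 1.01, Rgs19 at 5.50 ± 0.969, Rgs10 at 5.07 ± 1.53, Rgs7 at 4.17 ± 0.994, Rgs18 at 0.768 ± 0.582, Rgs6 at 0.496 ± 0.108, Rgs16 at 0.262 ± 0.371 and Rgs1 at 0.136 ± 0.0937 CPM per kilobase. There, Rgs19, Rgs10 and Rgs7 overlapped each with the next, as did Rgs18, Rgs6, Rgs16 and Rgs1.

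Over all 21 RGS genes of the table, the summed level per kilobase was 331 and 252 in ALLO and 276 and 320 in ISO, so the groups overlapped in the total while its make-up differed. Rgs5 took 57.4% and 48.2% of it in ALLO and 69.7% and 75.1% in ISO. Rgs4 took 1.14% and 2.05% in ALLO, against 15.6% and 14.7% in ISO. Rgs2 had 10.3% and 14.7% in ALLO and 3.63% and 2.69% in ISO, and Rgs10 had 11% and 12.2% in ALLO and 2.23% and 1.25% in ISO. Rgs1 had 4.52% and 4.72% in ALLO, against 0.0731% and 0.0217% in ISO. The ratio of Rgs5 to Rgs4, per kilobase, was 50.3 and 23.5 in ALLO and 4.47 and 5.09 in ISO.

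**Figure D4:**
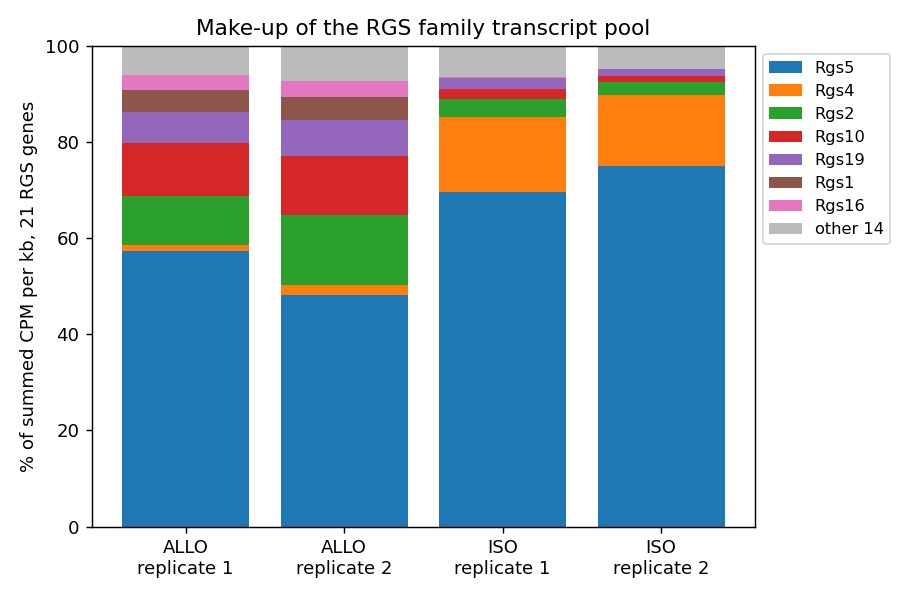
Share of each RGS gene in the summed CPM per kilobase of all 21 RGS genes, one bar per library, with the other 14 genes drawn together in grey. Rgs4 has 15.6% and 14.7% in ISO and shrinks to 1.14% and 2.05% in ALLO, where Rgs2, Rgs10, Rgs19, Rgs1 and Rgs16 take larger shares.

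The genes lie in clusters on chromosome 1, which holds 7 of the 10. Rgs2, Rgs13, Rgs1, Rgs21 and Rgs18 follow each other with 134492, 64923, 267405 and 185015 bases between them and no protein-coding gene in the gaps. In this cluster Rgs2 and Rgs1 rose, Rgs18 did not pass, Rgs13 was too low to test and Rgs21 had 0 counts in every library. Rgs16 lies 40025 bases from Rgs8, which had 10 and 32 counts in ALLO and 2 and 0 in ISO, too few for the test.

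Of the 11 RGS genes outside the 10, 6 were tested, and 1 rose and 1 fell. Of all genes tested, 18.4% rose and 14.8% fell. The median log2 change of the 6 was 0.26, against 0.025 over all genes tested. Leaving out a library gave medians of 0.22 (without ALLO replicate 2) to 2.56 (without ISO replicate 1), the last over 8 genes, among them genes with 0 ISO counts that entered at fitted values. Rgs14, a scaffold that also binds inactive Gi alpha and is known from lymphocytes and brain, had 34.6 and 27.2 CPM in ALLO and 4.33 and 0.966 CPM in ISO, 11.6-fold higher (edgeR adjusted p = 0.0189). Leaving out ISO replicate 1 made this 31.5-fold, leaving out ISO replicate 2 made it 7.03-fold, and without ALLO replicate 1 it did not pass (edgeR adjusted p = 0.0589). Rgs17, an RZ member, had 1.85 and 1.18 CPM in ALLO and 14.1 and 4.47 CPM in ISO, 6.12-fold lower (edgeR adjusted p = 0.0384). It did not pass if ISO replicate 1 (2.97-fold, edgeR adjusted p = 0.179) or either ALLO library (0.0984 and 0.127) was left out, nor with limma-voom (0.0694). Without ISO replicate 2 the fall was 9.43-fold.

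Rgs3, Rgs11, Rgs12 and Rgs9 did not pass, at log2 changes of -0.25, -0.019, 0.53 and 1.27. Rgs9 had 14 and 22 counts in ALLO and 12 and 0 in ISO, so its change was 0.27 with ISO replicate 2 left out, and with ISO replicate 1 left out its size cannot be given. Rgs3, the most abundant of these 4, had 51.6 and 62.2 CPM in ALLO and 77.9 and 57.1 CPM in ISO. Rgs13, known from germinal centre B cells and mast cells, had 26 and 5 counts in ALLO and 0 in both ISO libraries. Rgs20 had 4 counts in ISO replicate 1 and 0 elsewhere, and Rgs22 had 0 in every library.

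Genes for other proteins with an RGS-type domain gave 2 higher and 2 lower among 14 tested, with a median of 0.35. Of all genes tested, 18.4% were higher and 14.8% lower. Grk2 and Grk3, kinases that phosphorylate active receptors, rose 2.30- and 2.50-fold, and Grk5 fell 1.93-fold. Each of these 3 calls was lost when some library was left out, at edgeR adjusted p values up to 0.155, 0.0688 and 0.136. Without ISO replicate 1 this list had 0 higher and 1 lower. Arhgef12, which binds active G alpha 12 and 13, fell 3.55-fold (log2 -1.83 ± 0.30, edgeR adjusted p = 0.0122).

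Among the G alpha subunits 3 of 13 rose and 4 fell, where 18.4% of all genes tested rose and 14.8% fell. RGS proteins act mainly on those of the Gi and Gq classes. The median of the 13 was -0.13. Gnai1, a Gi subunit, had 14.8 and 19.7 CPM in ALLO and 144 and 182 CPM in ISO, 9.45-fold lower (edgeR adjusted p = 0.00321). Gna11, of the Gq class, and Gnao1, of the Gi class, fell 3.13- and 3.76-fold, the second 5.69-fold without ALLO replicate 2. Gna13, of the G12 class, Gna15, the haematopoietic Gq subunit, and Gnal, of the Gs class, rose 2.56-, 16.3- and 2.98-fold. Gnas, also of the Gs class, had 16.6 and 28.1 CPM in ALLO and 44.7 and 53.4 CPM in ISO. It was 2.19-fold lower (edgeR adjusted p = 0.0437), close to the threshold. Scaled by library size alone, 3 subunits fell, Gnai1, Gna11 and Gnao1, so the call of Gnas was lost. Values of Gnas with a library left out are not given here. For Gna15 the rise was 53.2-fold if ISO replicate 1 was left out and 9.5-fold if ISO replicate 2 was. Gna15 did not pass without ALLO replicate 2 (edgeR adjusted p = 0.0509), nor Gna13 without ISO replicate 2 (0.0629). Gnal did not pass in 3 of the 4 cases, those without ISO replicate 2 or either ALLO library (0.0538 to 0.0848). The number that rose was 1 without replicate 2 of either group. Gnai2, the most abundant Gi subunit by CPM, had 496 and 666 CPM in ALLO and 597 and 548 CPM in ISO, groups that overlapped.

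Of the 12 G beta and gamma genes tested, 1 rose and 3 fell, with a median of -0.17. Over all genes tested, 18.4% rose and 14.8% fell. Gng2 had 75.4 and 63.5 CPM in ALLO and 6.14 and 3.02 CPM in ISO, 15.1-fold higher. Its rise was 22.7-fold without ISO replicate 1 and 11.1-fold without ISO replicate 2. Gnb4, Gng8 and Gng12 fell 3.32-, 4.16- and 1.88-fold, but Gng8 did not pass when ALLO replicate 1 was left out (edgeR adjusted p = 0.0576), nor Gng12 when either ISO library was (0.104 and 0.173).

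Effectors fell more often than they rose, in 7 of 12 against 1 of 12 cases, where 14.8% of all genes tested were lower and 18.4% higher, with a median of -1.20. Adcy5, the adenylyl cyclase known from arterial smooth muscle and heart, which Gi inhibits, had 49.5 and 103 CPM in ALLO and 1286 and 1293 CPM in ISO, 16.9-fold lower (edgeR adjusted p = 0.00499). Leaving out ALLO replicate 2 made it 25.9-fold, and leaving out ALLO replicate 1 made it 12.3-fold. Plcb4, a phospholipase activated by Gq, fell 13.2-fold and the cyclase gene Adcy6 3.24-fold. Plcb2, the phospholipase of leukocytes, was the member that rose, 32.8-fold, with 41.0 and 48.6 CPM in ALLO and 2.22 and 0.483 CPM in ISO. Its rise was 90.7-fold with ISO replicate 1 left out and 19.8-fold with ISO replicate 2 left out.

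The receptors whose signals RGS proteins limit differed by list. Of 25 vascular receptors tested, 7 fell and 4 rose, where 14.8% of all genes tested fell and 18.4% rose. The median of these receptors was nevertheless slightly above 0, at 0.056. Without ALLO replicate 1, 4 fell, and without ALLO replicate 2, 2 rose. DESeq2 gave 8 lower and 8 higher. Adra1d, the alpha-1D adrenergic receptor of large arteries, had 1.13 and 2.09 CPM in ALLO and 67.7 and 87.5 CPM in ISO, 47.7-fold lower (edgeR adjusted p = 0.00264). The serotonin receptor gene Htr1b and the thromboxane receptor gene Tbxa2r fell 7.85- and 5.53-fold. Without ALLO replicate 1 the fall of Htr1b was 5.35-fold, and without ALLO replicate 2 it was 14-fold. Ednra, the endothelin receptor of smooth muscle, the sphingosine-1-phosphate receptor gene S1pr2 and the UDP receptor gene P2ry6 rose 2.81-, 2.46- and 2.74-fold, and all 3 calls were lost without ISO replicate 2 (edgeR adjusted p = 0.0526, 0.0759 and 0.0765), where 1 receptor of the list was higher. P2ry6 also did not pass without ALLO replicate 2 (2.12-fold, edgeR adjusted p = 0.0630).

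Leukocyte chemotactic receptors coupled to Gi rose in 11 of 16 cases with edgeR, where 18.4% of all genes tested rose. Of these receptors 0 fell, also with DESeq2 and limma-voom and at an unadjusted p under 0.05. Their median was 4.78, or 4.35 with Ccr4, which had 0 counts in both ISO libraries, at its lower bound. With genes at 0 entered at fitted values, it was 6.02 without ISO replicate 1, where 16 rose, and 3.79 without ISO replicate 2, where 13 rose. Cx3cr1, the fractalkine receptor gene, had 126 and 121 CPM in ALLO and 3.63 and 2.05 CPM in ISO, 43.2-fold higher (edgeR adjusted p = 0.00216). Cxcr4, the receptor gene for Cxcl12, had 106 and 114 CPM in ALLO and 3.98 and 1.99 CPM in ISO, 36.7-fold higher (edgeR adjusted p = 0.00287). Without ISO replicate 1 the rises of Cx3cr1 and Cxcr4 were 59.3- and 54.6-fold. Without ISO replicate 2 they were 33.4- and 27.2-fold.

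**Figure D5:**
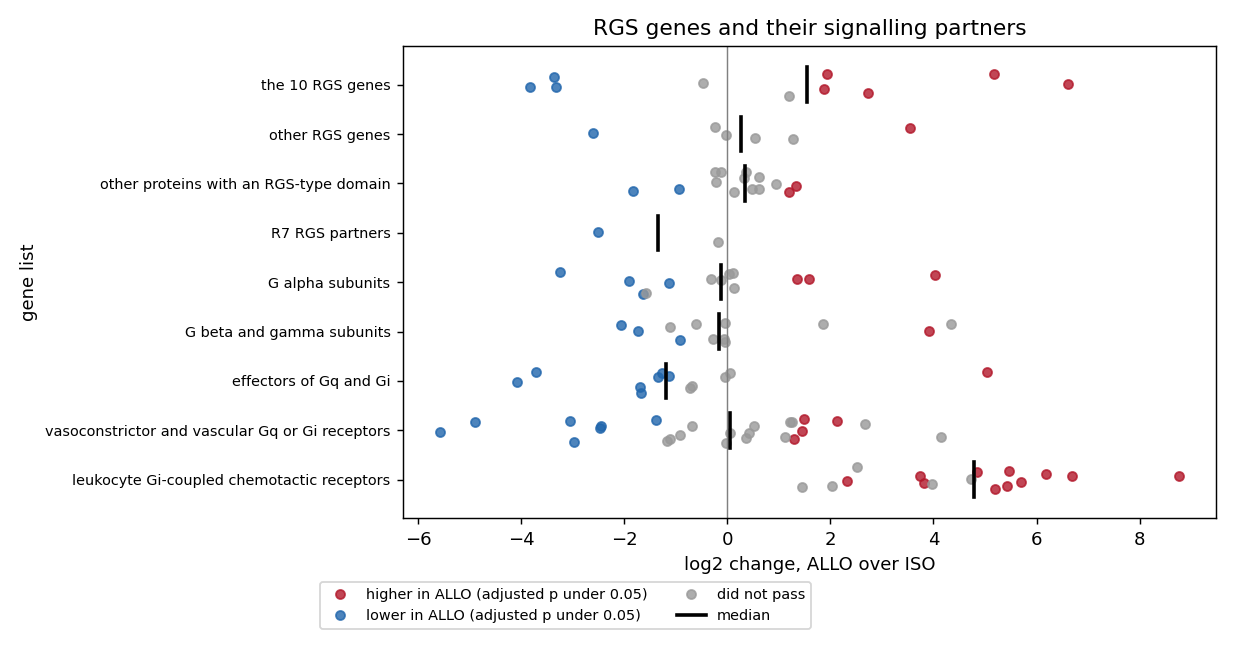
Log2 change, ALLO over ISO, of each tested gene (points) in the 10 RGS genes and 8 lists of signalling partners, with red for higher, blue for lower, grey for not passed and a black bar at the median. The RGS genes lie on both sides of 0, effectors lie mostly below it and chemotactic receptors above it, where the point farthest right is Ccr4, with 0 counts in ISO and no estimate of its size.

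The genes most alike in pattern were looked up for the called RGS genes with the largest rise and fall among those with at least 20 counts in every library, which were Rgs10 and Rgs7. Likeness was the root mean square difference of centred log2 CPM over the 4 libraries, among 12384 protein-coding genes. Closest to Rgs10 were Dennd1b (0.041), Plcg2 (0.050), Dbf4 (0.059), Prr11 (0.076) and Madd (0.080), and 125 genes lay within 0.25. Closest to Rgs7 were Hspb6 (0.060), B3galt1 (0.10), Sel1l3 (0.11), Foxf1 (0.11) and Gucy1b1 (0.13), and 41 genes lay within 0.25. With 4 libraries in 2 groups such likeness is weakly resolved.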

How the data were processed

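For each of 4 libraries the authors deposited a column of raw counts of reads per gene. Subread 1.6.4, featureCounts, R 4.0.3 and DESeq2 1.30.0 are named, with mm10, per the submitters' processing notes. The sources used here do not give the aligner, the annotation release or the strand setting. Gene symbols came from GENCODE M21 for 54723 of 54752 IDs, and positions of the 10 RGS genes were the same in that annotation. Of genes with 1 to 20 counts, 68.0% to 74.6% had an even count, against 49.5% to 50.9% above 100, so both mates of a pair may have been counted, and a floor of 6 counts (3 pairs) was used. Floors cover counting error only.

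Genes were filtered with filterByExpr (minimum count 10), scaled by TMM and tested with edgeR 4.0.16 (glmQLFit, glmQLFTest, group as the only term) over all 16498 genes kept, with Benjamini-Hochberg adjustment. Standard errors belong to the log2 change. Genes at 0 in a group enter list medians at a fitted value, or, where stated, at their bound. The procedure was tested on simulated counts. The genes changed there had mean counts well above the filter, so the simulation does not bear on calls at low counts. The RGS genes and the 19 lists (174 genes, from textbook knowledge) were chosen with earlier results of these data known. Named genes were the 10, all other RGS genes, and up to 3 members per pathway list and direction with the smallest adjusted p, of which 1 is not reported here. Tubb3, Snap25, Csf3r, Pdgfrb, Notch3, Gnai2, Gnas and members named for 0 or low counts were added after their values were seen. Alternatives were 3 other scalings, 2 other filters, DESeq2 1.42.0, limma-voom (limma 3.58.1), a replicate block, halved counts and each library left out in turn. A fit with 1 library in a group assumes that it varies like the other group. R 4.3.3, Python 3.11.15, pandas 2.3.3 and matplotlib 3.10.9 were used.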

Additional observations from a re-analysis of the deposited data

How the results depend on the processing

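The 10 RGS genes kept their direction under all 13 alternatives, and the side of the threshold in 127 of 130 values. The exceptions concerned Rgs16 and are given with it above. The number higher was 4 with DESeq2 and 4 to 5 with a library left out, and the number lower was 3 throughout. Over all genes, leaving out a library gave 2054 to 2506 higher and 1512 to 2245 lower, against 3032 and 2437. Scaling by library size alone moved the median of all genes by 0.19 (log2) and gave 3546 higher and 1867 lower, with the same calls among the 10. The replicate block gave 5 higher and 3 lower of the 10, and 2766 higher and 2107 lower of all genes. The numbers are not shown to pair the samples (deviations of same-numbered libraries correlated at r = 0.097 over genes, a single value with 2 libraries a group), but the block changed calls in other lists: B cell markers had 5 higher against 0, chemotactic receptors 15 against 11 and neutrophil markers 2 against 1, and vascular receptors had 6 lower against 7. Of 441 values for 34 named pathway and other RGS genes, 25 lost the threshold. The 441 include values of Rgs3, Rgs9, Rgs11 and Rgs12, which had not passed and so could not lose it. Apart from Rgs17 with limma-voom, every loss came with a library left out. Rgs11, which did not pass, turned to 0.0030 (DESeq2 size factors), 0.17 (library size), 0.0028 (DESeq2), and ranged from -0.075 to 0.039 with a library left out, against -0.019. With 2 libraries a group, low genes such as Rgs6, Rgs16 and Rgs18 are the least certain.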
